A study of Homo sapiens with 6 samples.

Results

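Messenger RNA was sequenced from cells labelled HepG2, an established human liver cancer line, given either saikosaponin A (20 µM) or its solvent DMSO as the control for 4 h. Saikosaponin A, written SsA below, is a triterpenoid saponin of Bupleurum roots. Each group held 3 libraries, and both groups were grown in the same serum-containing medium. No label says whether the 3 libraries of a group came from separate cultures, so the spread that the p-values rest on is the one between these libraries and may be technical. The members described here are the translation initiation factors and the eIF2 kinases. They were the rows whose gene symbol began with EIF and a digit from 1 to 6. Rows for pseudogenes, antisense transcripts and EIF1AY were dropped. Of 29435 rows in the table, 96 had such a symbol, 43 were dropped and 53 remained. The 4E-binding proteins have symbols that end like those of pseudogenes, so they fell under the dropped names and are described with the regulators. The 53 also hold rows that are not factors: EIF3J-DT and EIF2AK3-DT are noncoding transcripts that start next to EIF3J and EIF2AK3 on the opposite strand.

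Initiation begins when eIF2, bound to GTP and the initiator tRNA, joins the small ribosomal subunit with eIF1, eIF1A, eIF3 and eIF5. The eIF4F complex, built of the cap-binding eIF4E, the scaffold eIF4G and the helicase eIF4A, brings this particle to the capped end of an mRNA, and eIF5B then helps the large subunit to join. Stress-activated kinases phosphorylate the alpha subunit of eIF2, which blocks its exchange factor eIF2B and lowers initiation on most mRNAs while favouring a few such as ATF4. Binding of eIF4E by the 4E-binding proteins, which mTOR kinase controls by phosphorylation, is the other main point of control. The factors are abundant in growing cells, and some of their mRNAs, like those of ribosomal proteins, begin with a run of pyrimidines (a TOP sequence) that places them under mTOR control.

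The libraries held 57768359 to 74912492 counts. The share of counts from mitochondrially encoded genes was 14.9% in DMSO replicate 3 and 18.8% in SsA replicate 1, against 6.19% to 8.28% in the other 4 libraries. The members took 1.21% of all counts in each of these 2 libraries and 1.32% to 1.37% in the others. The part of this difference in the results was not tested, but fold changes without the 2 libraries are given below. Of 12 hepatocyte marker genes, 8 had rows, and all 8 had a mean below 0.1 FPKM (a level scaled to the length of the gene and the size of the library). Their summed level was 0.0613 to 0.0743 FPKM with DMSO and 0.0278 to 0.0660 with SsA, so the liver identity in the label was not visible in these transcripts. Of the 5 fibroblast markers with rows, 3 (COL1A1, COL3A1 and PDGFRB) reached a mean of 1 FPKM, and the 5 summed to 33.4 to 44.4 FPKM with DMSO and 28.1 to 34.7 with SsA. Of 3 markers of other epithelia, KRT17 reached 1 FPKM, and the 3 summed to 11.9 to 16.1 FPKM with DMSO and 20.2 to 27.9 with SsA. Neither the 4 endothelial markers nor the single leukocyte marker with rows reached 1 FPKM. The part of other cells in the results was not tested.

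Of the 53 rows, 51 had at least 1 FPKM in at least 3 of the 6 libraries and were tested. EIF4E3, an atypical cap-binding protein, was not tested, with 0.899 ± 0.0726 FPKM with DMSO and 0.817 ± 0.156 with SsA (SD, n = 3). EIF2AK3-DT was not tested either, at 0.292 ± 0.0946 FPKM with DMSO and 0.29 ± 0.111 with SsA. Counts were compared with edgeR's quasi-likelihood test, with Benjamini-Hochberg adjustment over all 11427 tested rows and a threshold of 0.05. A log2 fold change of 1 is a doubling with SsA. With SsA, 25 members rose (49.0%) and 7 fell (13.7%), and 19 did not pass. Over all tested rows, 25.9% rose and 27.9% fell. These shares also stand beside the edgeR counts of each factor group and gene list below, except where a length correction is named. The median log2 fold change of the members was 0.26, in a range from -0.89 to 0.70, and that of all tested rows was 0.03. The lowest SsA library lay above the highest DMSO library for 27 members, against 30.4% of all tested rows. The reverse held for 9 members, against 32.4% of all tested rows, and for 15 members the groups overlapped. The eIF2B, eIF3 and eIF4A genes made up most of the members that rose, while EIF4G1, EIF4G3 and EIF2AK2 fell most. In such bulk samples, fewer cells of one kind and less RNA per cell cannot be told apart.

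The scale of the comparison mattered for the number of members that passed. On log2(FPKM + 1) values with limma, 6 members were higher and 9 lower, against 8.00% and 32.6% of all tested rows. The 6 higher were EIF2B4, EIF3G, EIF3H, EIF3I, EIF3L and EIF3M. On this scale the median of all rows shifted to -0.11 and that of the members was 0.10. On log2(TPM + 1) values, where TPM rescales the FPKM of each library to a common total, 0 members were higher by limma, also at an unadjusted p under 0.05, and 5 were lower, against 0.429% and 21.4% of all tested rows. Here the median of all rows was -0.31 and that of the members -0.10. In every one of these scalings more members lay above the median of all tested rows than below it: 38 of 51 in the count-based fit, 35 of 51 with FPKM + 1 and 35 of 51 with TPM.

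**Figure D1:**
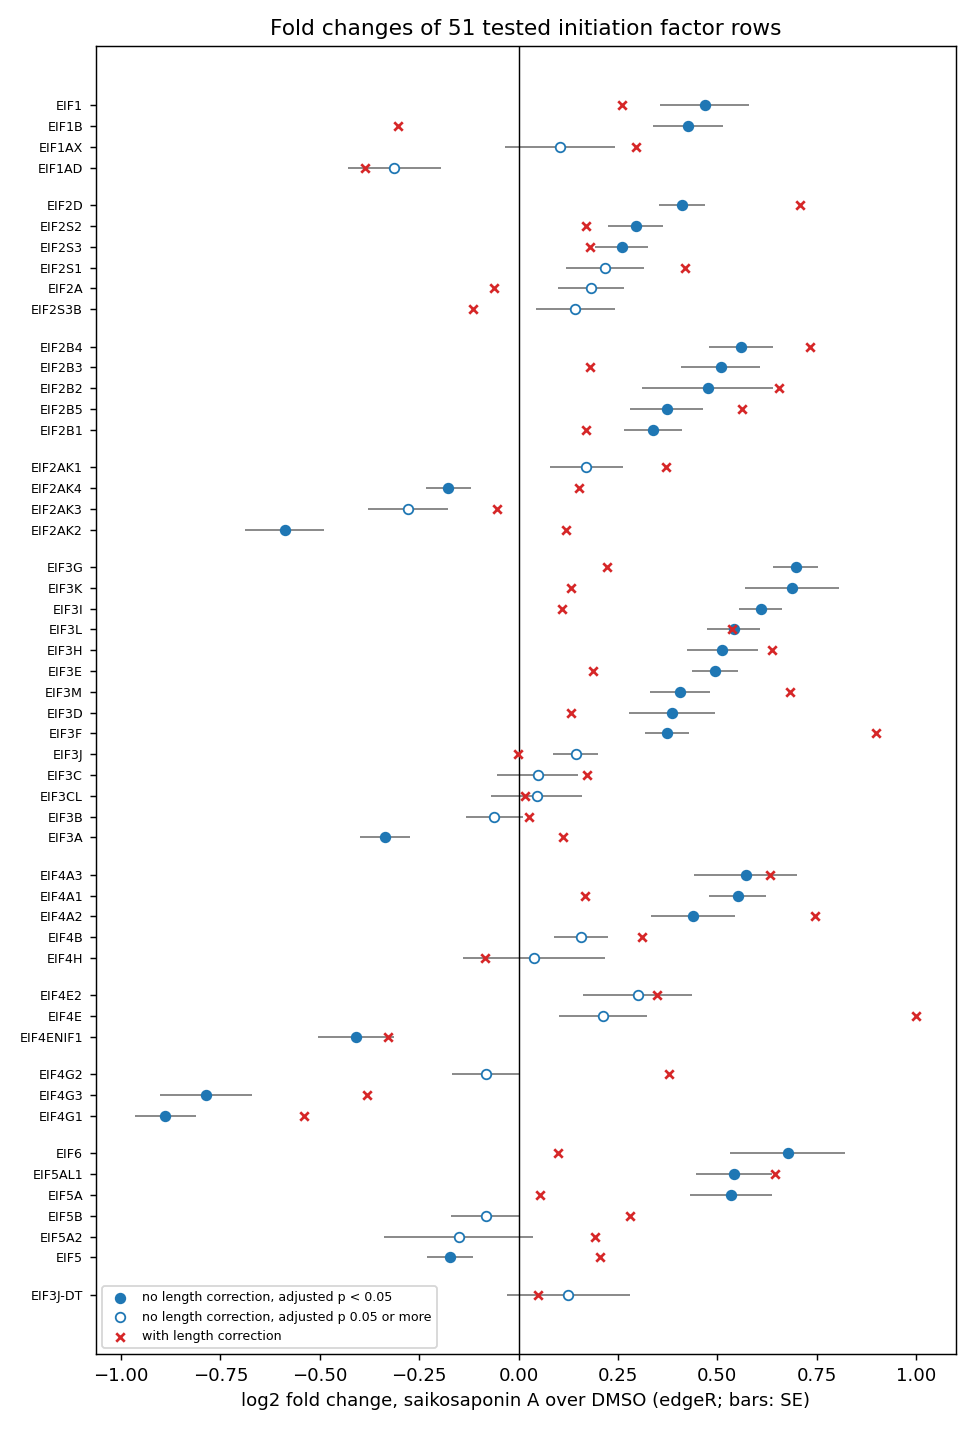
Log2 fold change of each of the 51 tested rows, SsA over DMSO, grouped by factor (x axis; edgeR, bars are SE, 3 libraries a group). Filled circles passed an adjusted p of 0.05, and crosses give the value after correction for transcript length; EIF4G1 lies lowest in both, while the crosses of EIF2AK2 and EIF3A lie on the other side of 0.

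Levels per length spread widely over the members. EIF5A, an elongation-promoting factor that carries the modified residue hypusine, had the highest mean, 257 FPKM over the 6 libraries, in a range of 187 to 319. EIF4B, which stimulates the eIF4A helicase, followed with 188 FPKM (range 167 to 200), EIF4A1 with 167 (126 to 202), EIF2S3 with 139 (115 to 154) and EIF4G2 with 121 (107 to 132). The ranges of each of these neighbours overlapped. Within libraries, EIF5A lay above EIF4B and EIF4A1 above EIF2S3 in all 6, while EIF4B lay above EIF4A1 and EIF2S3 above EIF4G2 in 5 of 6. EIF5A2, the second eIF5A gene, had the lowest mean of the tested factors, at 1.02 FPKM (range 0.736 to 1.21), and its lowest library held 284 counts. EIF4E, the cap-binding protein itself, was also low at 2.77 FPKM (range 2.16 to 3.13). FPKM depends on the length assigned to a gene, and EIF4E has an annotated transcript of 11523 nt, the longest among the members. Among the kinases EIF2AK1 had 48.7 to 50.2 FPKM, and the other 3 had 3.83 to 9.44, so EIF2AK1 stood clear of the others in every library.

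**Figure D2:**
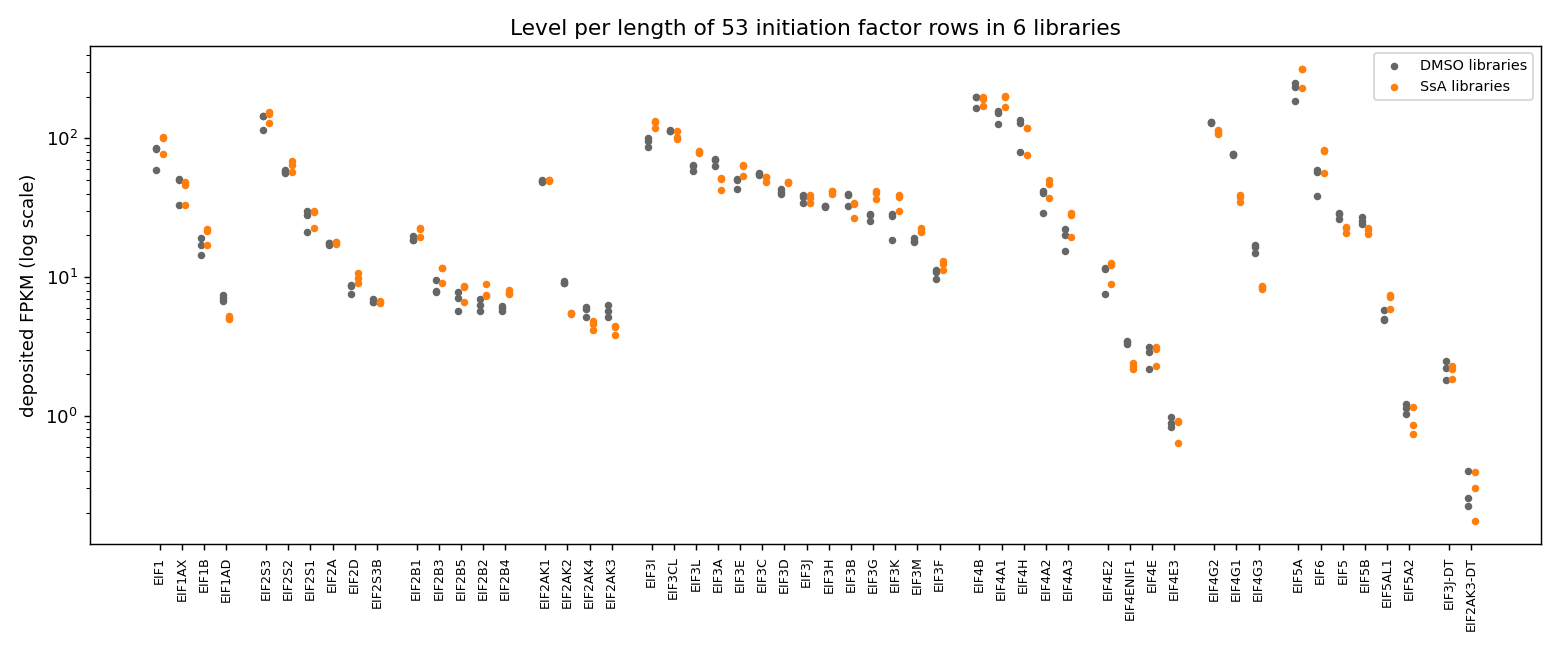
Deposited FPKM of the 53 rows in each of the 6 libraries, on a log y axis, with the rows in groups by factor along the x axis. EIF5A lies highest, with a mean of 257 FPKM, and EIF2AK3-DT lowest.

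The first transcribed bases were read from RefSeq starts (GRCh38.p14), because a pyrimidine run there is shared by mRNAs of the translation apparatus and was not used to choose the members. A start was counted as TOP-like when its first base was C and at least 4 pyrimidines followed. Of the 53 members, 45 matched by symbol, with 62 annotated starts. A TOP-like start occurred in 10 of these 62 (16.1%), against 1429 of all 35116 starts in the table (4.07%). The 10 starts belong to 10 genes, and each is shown as 15 bases before the start and 15 after it, 5′ to 3′ on the strand of the gene, with the pyrimidine run from the first transcribed base in capitals. EIF2A, chr3:150546772-150546801 on the plus strand, EIF2D, chr1:206612451-206612480 on the minus strand, EIF2S3, chrX:24054941-24054970 on the plus strand, and EIF2S3B, chr12:10505875-10505904 on the plus strand, encode eIF2 subunits or factors that deliver tRNA.
EIF2A: tcacccgagcggtttCTCTTTCCgggacaa
EIF2D: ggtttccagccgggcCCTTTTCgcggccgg
EIF2S3: ggggtgatttccttcCTCTTTTggcaacat
EIF2S3B: ggggtgactttcttcCTCTTTTggcaacat
The eIF3 subunit genes were EIF3D, chr22:36529152-36529181 on the minus strand, EIF3F, chr11:7987322-7987351 on the plus strand, EIF3K, chr19:38619173-38619202 on the plus strand, and EIF3M, chr11:32583816-32583845 on the plus strand.
EIF3D: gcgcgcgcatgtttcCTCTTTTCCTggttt
EIF3F: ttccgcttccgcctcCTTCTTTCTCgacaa
EIF3K: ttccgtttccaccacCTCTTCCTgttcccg
EIF3M: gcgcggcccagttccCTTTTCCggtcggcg
The helicase gene EIF4A2, chr3:186783562-186783591 on the plus strand, and EIF4B, chr12:53006441-53006470 on the plus strand, completed the set.
EIF4A2: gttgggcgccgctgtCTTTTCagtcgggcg
EIF4B: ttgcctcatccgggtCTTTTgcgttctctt
For contrast, one of the 3 starts of EIF4G1, chr3:184314591-184314620 on the plus strand, and the start of EIF2AK2, chr2:37156966-37156995 on the minus strand, belong to members that fell and hold no such run.
EIF4G1: tctgtgcggggagccggaaatggttgtgga
EIF2AK2: gtccaaggggaaaacgaaactgagaaccag

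Of the 10 genes with a TOP-like start, 7 rose with SsA by edgeR and the others were also above 0, with a median log2 fold change of 0.38 (range 0.14 to 0.69). The 3 that did not pass were EIF2A at 0.18, EIF2S3B at 0.14 and EIF4B at 0.16. Of the 33 tested members whose starts held no such run, 13 rose and 6 fell, with a median of 0.14. Among all tested genes with a TOP-like start, 242 of 651 rose and 136 fell, with a median of 0.16, and among the other 7749 matched genes 1992 rose and 2332 fell, with a median of -0.00. After correction for transcript length, described below, the members' medians were 0.24 with a TOP-like start and 0.17 without. The 8 members without a matched start stood in neither group. Of these EIF3A fell (-0.34), EIF2S2, EIF3E, EIF3G, EIF3H and EIF3L rose, and EIF2AK1 and EIF3CL did not pass. Which start the cells used was not measured.

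The 3 subunits of eIF2 and the related factors eIF2A and eIF2D gave 6 tested rows, of which 3 rose and none had a value below 0 (median log2 fold change 0.24). EIF2D, which delivers tRNA to ribosomes without GTP, had 73.5, 74.2 and 74.0 CPM (library-size-scaled counts, with TMM factors) in DMSO replicates 1 to 3. In SsA replicates 1 to 3 it had 97.5, 94.6 and 103 CPM. Every SsA library lay above every DMSO library, and the log2 fold change was 0.41 ± 0.06 (SE), with an edgeR adjusted p of 0.00142. EIF2S2, the beta subunit, had 156, 157 and 175 CPM with DMSO and 196, 195 and 208 with SsA (log2 fold change 0.30 ± 0.07, edgeR adjusted p = 0.0108). EIF2S3, the gamma subunit that binds GTP and tRNA, had 619, 618 and 571 CPM with DMSO and 699, 741 and 726 with SsA (0.26 ± 0.07, edgeR adjusted p = 0.0158). The groups did not overlap for either gene, but the call for EIF2S3 was lost without DMSO replicate 1, SsA replicate 2 or SsA replicate 3 (edgeR adjusted p 0.0513, 0.0677 and 0.0559). After length correction neither EIF2S2 (0.17, edgeR adjusted p = 0.107) nor EIF2S3 (0.18, 0.0686) passed, while EIF2D did (0.71, 5.44e-04). EIF2S2 also did not pass with the length implied by the deposited table (-0.010, edgeR adjusted p = 0.925) or where the FPKM filter was raised to a mean of 5 (0.18, 0.0607). EIF2S3 was higher with the implied length (0.20, edgeR adjusted p = 0.0435) but did not pass with that filter (0.14, 0.0810). EIF2S1, the alpha subunit that the kinases phosphorylate, did not pass (0.22 ± 0.10, edgeR adjusted p = 0.0978), with 141 to 173 CPM with DMSO and 167 to 195 with SsA, but did after length correction (0.42, edgeR adjusted p = 0.0213) and without SsA replicate 1 (0.29, 0.0392). EIF2A had a log2 fold change of 0.18 and EIF2S3B, a near-identical copy of EIF2S3, one of 0.14, and neither passed. Reads of EIF2S3 and EIF2S3B could have been split between the copies, so both values are uncertain.

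By edgeR on counts all 5 subunit genes of eIF2B, the exchange factor that reloads eIF2 with GTP, rose with SsA (median log2 fold change 0.48). By limma on log2(FPKM + 1) only EIF2B4 was called higher, with a median of 0.27 for the 5 genes. On that scale 3 were higher at an unadjusted p under 0.05. With TPM scaling 0 were called higher, and EIF2B1 turned to -0.02. EIF2B4, the delta subunit, which lies on chromosome 2 from 27364352 to 27370457 (GRCh38), had 33.2, 34.4 and 36.8 CPM with DMSO and 54.9, 47.5 and 51.3 with SsA. The groups were well apart, with a log2 fold change of 0.56 ± 0.08 (SE, edgeR adjusted p = 0.00148). EIF2B3, the gamma subunit of the catalytic part, had 28.1, 34.2 and 33.0 CPM with DMSO and 41.3, 46.6 and 47.7 with SsA (0.51 ± 0.10, edgeR adjusted p = 0.00514). EIF2B1, the alpha subunit that holds the complex together as a dimer, had 70.3, 74.7 and 82.0 CPM with DMSO and 94.1, 97.1 and 95.7 with SsA (0.34 ± 0.07, edgeR adjusted p = 0.00733). For each of these genes all SsA libraries lay above all DMSO libraries. EIF2B5, the catalytic epsilon subunit, rose by 0.37 (edgeR adjusted p = 0.0127, and 0.0507 without SsA replicate 3), and EIF2B2, the beta subunit, by 0.48 (0.0442). EIF2B2 passed narrowly: leaving out any library other than DMSO replicate 3 moved its edgeR adjusted p to between 0.0569 and 0.132. After length correction EIF2B2, EIF2B4 and EIF2B5 were still higher, while EIF2B1 and EIF2B3 no longer passed (edgeR adjusted p 0.13 and 0.18). With the length implied by the deposited table EIF2B3 was higher (0.36, edgeR adjusted p = 0.0212) and EIF2B1 did not pass (0.22, 0.0504).

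Of the 4 kinases that phosphorylate eIF2 alpha, 2 fell and 2 did not pass (median log2 fold change -0.23). By edgeR 0 rose, also at an unadjusted p under 0.05, and 0 rose by DESeq2 or by limma on log2(FPKM + 1). EIF2AK2 encodes PKR, which senses double-stranded RNA, and lies on chromosome 2 from 37099210 to 37157065 on the minus strand. It had 102, 101 and 124 CPM with DMSO and 78.6, 68.5 and 70.9 with SsA. All SsA libraries were below all DMSO libraries, a 1.503-fold lower level and a log2 fold change of -0.59 ± 0.10 (SE, edgeR adjusted p = 0.00283). The deposited levels per length were 9.17 ± 0.234 FPKM with DMSO and 5.46 ± 0.0629 with SsA (SD, n = 3). EIF2AK2 has an annotated transcript of 10042 nt, and after length correction its value was 0.12 and did not pass (edgeR adjusted p = 0.212).

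EIF2AK4 encodes GCN2, the kinase activated by uncharged tRNA and stalled ribosomes. It had 74.6, 76.6 and 75.1 CPM with DMSO and 66.8, 68.1 and 65.3 with SsA. The groups did not overlap, but the difference was small, at -0.18 ± 0.06 (edgeR adjusted p = 0.0323). Its call was lost without DMSO replicate 1, DMSO replicate 2, SsA replicate 2 or SsA replicate 3 (edgeR adjusted p 0.0746 to 0.111), and after length correction the value was 0.15 (edgeR adjusted p = 0.0863). With the length implied by the deposited table EIF2AK4 was called higher (0.33, edgeR adjusted p = 0.00612). EIF2AK3 encodes PERK, the kinase of the endoplasmic reticulum stress response, and had 29.7, 35.9 and 37.9 CPM with DMSO and 27.98, 28.3 and 28.998 with SsA. Although every SsA library lay below every DMSO library, it did not pass (-0.28 ± 0.10, edgeR adjusted p = 0.0509), and without DMSO replicate 1, the lowest DMSO library, the value was -0.38 (edgeR adjusted p = 0.0139). DESeq2 and limma on log2(FPKM + 1) called EIF2AK3 lower (adjusted p 0.0311 and 0.0201), but after length correction it was at -0.054 (edgeR adjusted p = 0.698), and without the FPKM filter its edgeR adjusted p was 0.185. EIF2AK1 encodes HRI, the kinase that responds to heme shortage and mitochondrial stress, and had 285, 280.2 and 336 CPM with DMSO and 365, 325 and 325 with SsA. The 2 libraries with a high mitochondrial share, DMSO replicate 3 and SsA replicate 1, had the highest values of their groups, and the groups overlapped. EIF2AK1 did not pass (0.17 ± 0.09, edgeR adjusted p = 0.158) but did after length correction (0.37, edgeR adjusted p = 0.0155), and in FPKM its means were 49.4 ± 0.728 and 49.8 ± 0.314. Without both of those libraries EIF2AK1 was called higher at the same size (0.17, edgeR adjusted p = 0.0017), from the 2 most alike libraries of each group. It was also called higher without DMSO replicate 3 alone (0.24, edgeR adjusted p = 0.0491). These are mRNA levels, and neither kinase activity nor eIF2 phosphorylation was measured.

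**Figure D3:**
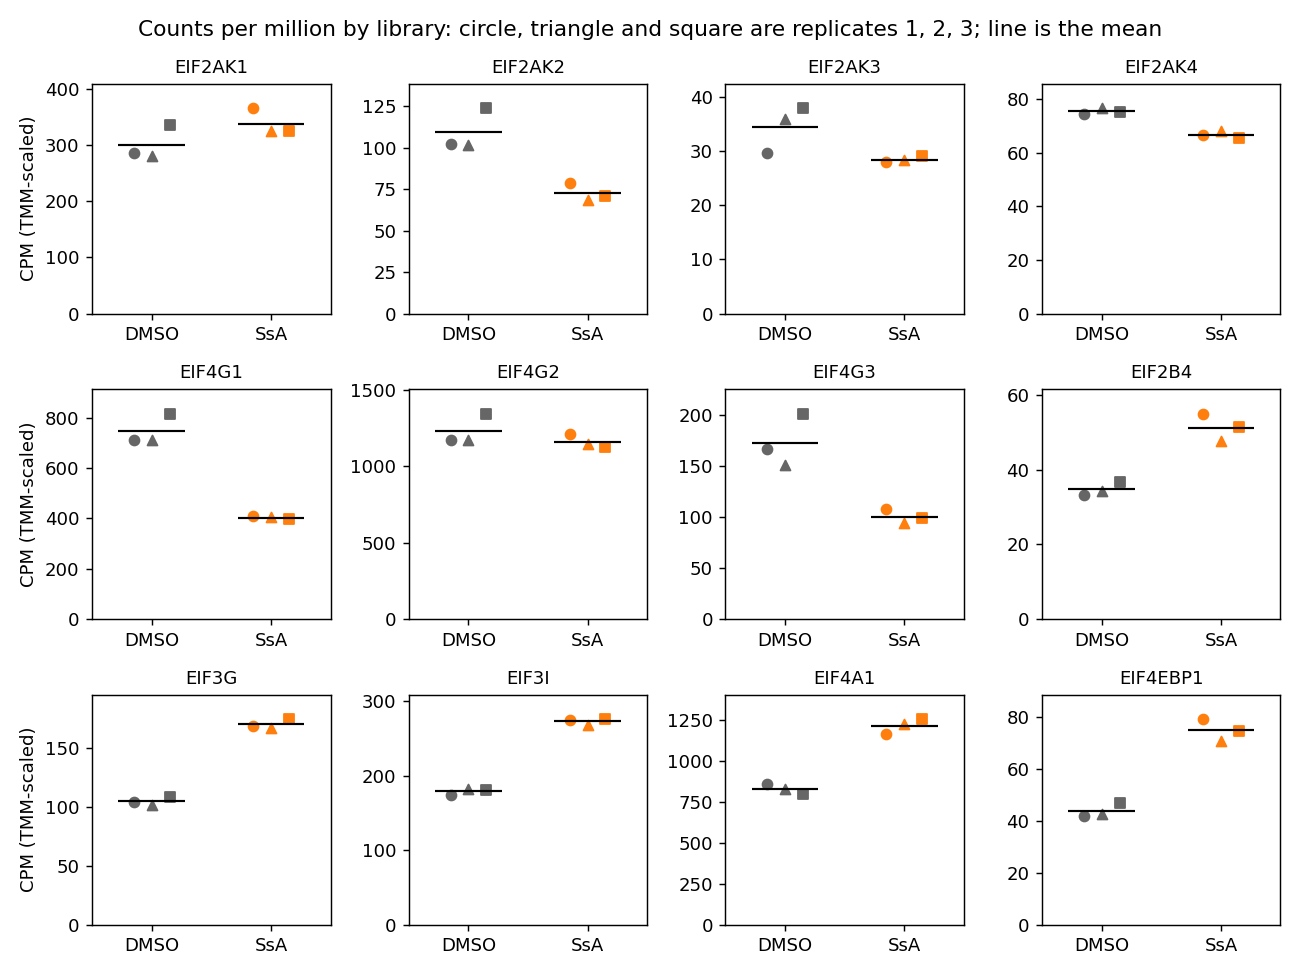
CPM (y axes from 0) in each DMSO and SsA library for the 4 eIF2 kinases, 3 eIF4G genes and 5 other genes named in the text; symbols mark replicates 1 to 3 and lines the group means. EIF4G1 fell from 712 to 816 CPM with DMSO to 396 to 409 with SsA, while the 3 kinases EIF2AK2, EIF2AK3 and EIF2AK4 lay lower with SsA without overlap.

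Among 12 genes that dephosphorylate eIF2 or regulate its kinases and assembly, 6 rose and 2 fell (median log2 fold change 0.15). Over all tested rows 25.9% rose and 27.9% fell. PPP1R15A encodes GADD34, the stress-induced subunit that directs protein phosphatase 1 to eIF2 alpha. It had 26.8, 27.5 and 20.9 CPM with DMSO and 34.7, 45.5 and 38.6 with SsA. All SsA libraries were above all DMSO libraries, with a log2 fold change of 0.66 ± 0.14 (SE, edgeR adjusted p = 0.00744). Its constitutive counterpart PPP1R15B moved the other way, from 212, 207 and 218 CPM to 169, 173 and 163 (-0.33 ± 0.06, edgeR adjusted p = 0.00283). PPP1CA, a catalytic subunit of that phosphatase, rose from 109.7, 119.8 and 116 CPM to 161, 164 and 166 (0.50 ± 0.06, edgeR adjusted p = 6.62e-04). GCN1, the ribosome-bound activator of GCN2, fell from 327, 335 and 343 CPM to 178, 175 and 173. That 1.91-fold lower level (-0.93 ± 0.05, edgeR adjusted p = 7.45e-05) exceeded the change of any kinase and was without overlap. After length correction PPP1R15A stayed higher (0.46, edgeR adjusted p = 0.0298) and GCN1 lower (-0.32, edgeR adjusted p = 0.00528), while PPP1CA and PPP1R15B no longer passed. With the length implied by the deposited table PPP1CA was higher (0.22, edgeR adjusted p = 0.0242) and PPP1R15B lower (-0.26, 0.0088).

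In the eIF1 group, of which eIF1 and eIF1A bind the small subunit and guard the choice of the start codon, 2 of 4 rose (median log2 fold change 0.27). By edgeR 0 fell, while 1, EIF1AD, was lower at an unadjusted p under 0.05 and by DESeq2. EIF1 had 326, 318 and 259 CPM with DMSO and 372, 440.5 and 437 with SsA (0.47 ± 0.11, edgeR adjusted p = 0.0114). EIF1B, its close paralogue, had 37.7, 33.98 and 33.1 CPM with DMSO and 42.9, 49.6 and 48.4 with SsA (0.43 ± 0.09, edgeR adjusted p = 0.00618). Both were higher in every SsA library, but the annotated transcript of EIF1B is the shortest of the members, at 1010 nt, and length correction turned its value to -0.30 (edgeR adjusted p = 0.0157). With the length implied by the deposited table EIF1B was at -0.038 (edgeR adjusted p = 0.693). EIF1 did not pass after length correction either (0.26, edgeR adjusted p = 0.0767), but did with the implied length (0.35, 0.0303). EIF1AD, which resembles eIF1A, had 24.9, 23.5 and 30.3 CPM with DMSO and 22.8, 19.6 and 20.9 with SsA, and although the groups did not overlap it did not pass (-0.31 ± 0.12, edgeR adjusted p = 0.0566). EIF1AX, which encodes eIF1A, had a log2 fold change of 0.10, and its 2 lowest libraries, at 179 and 196 CPM against 230.3 to 253 in the others, were the 2 with a high mitochondrial share.

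The subunit genes of eIF3, the largest factor and the platform that holds the others on the small subunit, gave 14 tested rows, of which 9 rose and 1 fell (median log2 fold change 0.40). EIF3G, an RNA-binding subunit, lies on chromosome 19 from 10115014 to 10119918 and had 104, 102 and 109 CPM with DMSO and 169, 167 and 175 with SsA. EIF3G thus rose 1.62-fold with a narrow spread (0.70 ± 0.06, edgeR adjusted p = 1.89e-04). EIF3I, a WD-repeat subunit of the same module, had 175, 182 and 181 CPM with DMSO and 275, 269 and 276 with SsA (0.61 ± 0.05, edgeR adjusted p = 2.37e-04). EIF3E, a subunit of the scaffold core, had 317, 319.5 and 317 CPM with DMSO and 431, 451 and 461 with SsA (0.49 ± 0.06, edgeR adjusted p = 6.57e-04). In each of these 3 genes the gap between the groups was wider than the range within either group. EIF3K rose by 0.69, EIF3L by 0.54, EIF3H by 0.51, EIF3M by 0.41, EIF3D by 0.39 and EIF3F by 0.37 on the log2 scale, all without overlap between the groups. EIF3D was the least firm of them, with an edgeR adjusted p of 0.0205 that became 0.0725 without DMSO replicate 1 and 0.0671 without DMSO replicate 2.

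The other eIF3 rows fell or did not pass. EIF3A, the largest subunit, fell from 524, 526 and 548 CPM to 401, 431 and 433, with all SsA libraries below all DMSO libraries (-0.34 ± 0.06, edgeR adjusted p = 0.00431). EIF3B, which anchors EIF3G and EIF3I, had a log2 fold change of -0.06 and did not pass. EIF3C and EIF3CL are near-identical copies on chromosome 16, and their values, 0.05 each, are uncertain because reads could have been assigned to either. EIF3J, a loosely bound subunit, had a value of 0.14 without passing (edgeR adjusted p = 0.0684). After length correction 6 eIF3 rows were higher and 0 lower by edgeR, against 16.5% and 15.9% of all tested rows. At an unadjusted p under 0.05 the counts were the same, against 2515 and 2516 of all 11427 tested rows. The 6 were EIF3F (0.90), EIF3M (0.68), EIF3H (0.64), EIF3L (0.54), EIF3G (0.22) and EIF3E (0.19). The fall of EIF3A did not persist (0.11, edgeR adjusted p = 0.236), nor did the rises of EIF3D, EIF3I and EIF3K (0.11 to 0.13). With the length implied by the deposited table EIF3K was higher (0.43, edgeR adjusted p = 0.0135). EIF3A, EIF3D and EIF3I did not pass with that length (edgeR adjusted p 0.228, 0.0804 and 0.291).

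By edgeR on counts all 3 eIF4A helicase genes rose, and EIF4B and EIF4H, which stimulate the helicase, did not pass (median of the 5 rows 0.44). By limma on log2(FPKM + 1) 0 of the 5 rows passed, with 1 higher at an unadjusted p under 0.05 and a median of 0.27. The 3 helicase genes did not pass on log2(TPM + 1) either. EIF4A1, the main helicase of the cap complex, had 861, 827 and 799 CPM with DMSO and 1163, 1226 and 1255 with SsA. It rose without overlap (log2 fold change 0.55 ± 0.07, edgeR adjusted p = 9.49e-04). EIF4A2, its paralogue, had 260.0, 268 and 217 CPM with DMSO and 303, 363 and 343 with SsA (0.44 ± 0.11, edgeR adjusted p = 0.0119). EIF4A3, a core protein of the exon junction complex rather than of the cap complex, had 121, 134 and 109 CPM with DMSO and 149, 198 and 194 with SsA (0.57 ± 0.13, edgeR adjusted p = 0.00922). SsA replicate 1 was the lowest of its group and DMSO replicate 3 the lowest of its own for all 3 genes, and still no groups overlapped. After length correction EIF4A2 and EIF4A3 stayed higher and EIF4A1 did not pass (0.17, edgeR adjusted p = 0.0874). With the length implied by the deposited table, however, EIF4A1 was higher (0.62, edgeR adjusted p = 0.00108). EIF4B, at 1226 to 1264 CPM with DMSO and 1373 to 1423 with SsA, had an edgeR adjusted p of 0.0854. It was higher after length correction (0.31, edgeR adjusted p = 0.0140) and by DESeq2 (0.16, adjusted p = 0.00523). EIF4H had its lowest values, 309.7 and 325 CPM, in the 2 libraries with a high mitochondrial share, against 430.0 to 454 CPM in the others, and its log2 fold change of 0.04 ± 0.18 carried no direction. The annotated exons of EIF4A1 overlap those of the read-through gene SENP3-EIF4A1 and of small nucleolar RNAs on the same strand.

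The cap-binding proteins did not pass in the 6 libraries, and a partner of eIF4E fell. EIF4E had 42.9, 45.9 and 37.2 CPM with DMSO and 43.0, 50.4 and 52.7 with SsA (0.21 ± 0.11, edgeR adjusted p = 0.141). EIF4E2, which binds caps while repressing translation, had 79.3, 80.5 and 60.4 CPM with DMSO and 77.5, 97.1 and 96.5 with SsA (0.30 ± 0.14, edgeR adjusted p = 0.104). In both genes the groups overlapped through SsA replicate 1, and without that library both were called higher (EIF4E 0.30, edgeR adjusted p = 0.0469, and EIF4E2 0.40, 0.0393). EIF4ENIF1 encodes 4E-T, which carries eIF4E into the nucleus and to processing bodies, and had 21.2, 22.02 and 25.3 CPM with DMSO and 17.6, 16.5 and 17.5 with SsA. It fell without overlap (-0.41 ± 0.10, edgeR adjusted p = 0.0105), also after length correction (-0.33, edgeR adjusted p = 0.0331). EIF4ENIF1 did not pass with the length implied by the deposited table (-0.25, edgeR adjusted p = 0.0602). Nor did it pass with length correction and the replicate block together. Length correction raised EIF4E to 1.001 (edgeR adjusted p = 0.00331), for which its longest annotated transcript of 11523 nt was used. With the length implied by the deposited table it was also higher (0.81, edgeR adjusted p = 0.00462).

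The eIF4G scaffolds, which bridge eIF4E, eIF4A, eIF3 and the poly(A)-binding protein, held the largest falls among the members. EIF4G1, on chromosome 3 from 184314495 to 184335357, had 712, 712 and 816 CPM with DMSO and 409, 404 and 396 with SsA. Every SsA library lay far below every DMSO library, a 1.85-fold lower level (-0.89 ± 0.08, SE, edgeR adjusted p = 2.20e-04). In FPKM the means were 77.2 ± 0.681 with DMSO and 37.3 ± 2.07 with SsA (SD, n = 3). EIF4G3, the paralogous scaffold, had 166, 151 and 201 CPM with DMSO and 108, 93.5 and 98.4 with SsA, a 1.73-fold lower level (-0.79 ± 0.12, edgeR adjusted p = 0.0016). EIF4G2 encodes DAP5, a relative that cannot bind eIF4E, and had 1169, 1174 and 1343 CPM with DMSO and 1209, 1144 and 1129 with SsA. Its groups overlapped, and it did not pass (-0.08 ± 0.08, edgeR adjusted p = 0.435). After length correction EIF4G1 (-0.54, edgeR adjusted p = 0.00136) and EIF4G3 (-0.38, edgeR adjusted p = 0.0221) remained lower, and EIF4G2 was higher (0.38, edgeR adjusted p = 0.00722). Among the called members, EIF4G1 and EIF4G3 alone were called in the same direction in all 21 alternative fits.

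Of 15 tested genes that regulate the cap complex, 4 rose and 5 fell, against 25.9% and 27.9% of all tested rows (median log2 fold change -0.11). EIF4EBP1, the 4E-binding protein that sequesters eIF4E when mTOR is inactive, had 41.9, 42.8 and 47.0 CPM with DMSO and 79.2, 71.0 and 74.7 with SsA. It was 1.71-fold higher without overlap (0.77 ± 0.08, edgeR adjusted p = 3.45e-04). EIF4EBP2, its paralogue, moved the other way, from 135, 133 and 148 CPM to 91.9, 79.3 and 83.7 (-0.71 ± 0.08, edgeR adjusted p = 5.53e-04). The 2 genes differ in length, with annotated transcripts of 1020 and 7257 nt. After length correction EIF4EBP1 no longer passed (0.05, edgeR adjusted p = 0.773), and EIF4EBP2 was lower by less (-0.20, edgeR adjusted p = 0.0454). LARP1, which binds the cap and the TOP sequence, fell from 306, 318 and 356 CPM to 148, 146 and 145. LARP1 was 2.24-fold lower with SsA (-1.16 ± 0.07, edgeR adjusted p = 8.68e-05), also after length correction (-0.72, edgeR adjusted p = 4.30e-04). CTIF, a scaffold related to eIF4G that works with the nuclear cap-binding complex, fell from 33.2, 33.98 and 29.9 CPM to 18.6, 17.1 and 17.1 (-0.88 ± 0.08, edgeR adjusted p = 3.14e-04).

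The last group joins the factors that act at subunit joining and after it, with 3 of 6 higher and 1 lower (median log2 fold change 0.23). EIF5A had 657, 705 and 613 CPM with DMSO and 832, 1010.5 and 1019 with SsA (0.53 ± 0.10, edgeR adjusted p = 0.00477). EIF5AL1, an expressed copy of EIF5A that may share its reads, had 19.8, 23.3 and 23.4 CPM with DMSO and 30.0, 33.8 and 32.9 with SsA (0.54 ± 0.10, edgeR adjusted p = 0.0033). EIF6, which keeps large subunits from joining too early, had 98.5, 101 and 76.6 CPM with DMSO and 122, 159 and 159.5 with SsA (0.68 ± 0.14, edgeR adjusted p = 0.00726). No groups overlapped in these 3 genes, but after length correction EIF5A (0.06) and EIF6 (0.10), both with short transcripts, did not pass. With the length implied by the deposited table EIF5A was higher (0.25, edgeR adjusted p = 0.0484) and EIF6 did not pass (0.14, 0.334). EIF5, the protein that makes eIF2 hydrolyse GTP at the start codon, fell slightly (-0.17 ± 0.06, edgeR adjusted p = 0.0387). The call for EIF5 was lost without any 1 of the 6 libraries (edgeR adjusted p 0.0522 to 0.116), and its value after length correction was 0.21 (edgeR adjusted p = 0.0196). EIF5B and EIF5A2 had values of -0.08 and -0.15 and did not pass, and neither did the noncoding EIF3J-DT (0.13, at 7.497 to 10.1 CPM).

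Other lists of translation genes were read beside the members. Of 6 genes for start-site choice, scanning and recycling, 2 rose and 0 fell by edgeR or DESeq2 (median log2 fold change 0.18), with 1, DHX29, lower at an unadjusted p under 0.05. BZW2, a mimic of eIF5, rose from 106, 119 and 108 CPM to 152, 159.6 and 162 (0.50 ± 0.07, edgeR adjusted p = 0.00118). MCTS1, which recycles small subunits and aids reinitiation, rose from 43.6, 41.6 and 38.6 CPM to 48.6, 54.3 and 57.1 (0.37 ± 0.09, edgeR adjusted p = 0.0101), but its value was -0.29 after length correction (edgeR adjusted p = 0.0119) and 0.82 with the length implied by the deposited table. The helicase gene DHX29 had a value of -0.24 and did not pass. Of the mitochondrial initiation factors, neither MTIF2 (0.13) nor MTIF3 (0.31) passed. Of 13 elongation and termination genes, 7 rose and 1 fell, against 25.9% and 27.9% of all tested rows (median 0.28). EEF1B2, an exchange factor of elongation, rose from 233, 234 and 201 CPM to 374, 426 and 452 (0.90 ± 0.10, edgeR adjusted p = 4.67e-04). DPH5, which helps to make the diphthamide of elongation factor 2, rose from 26.7, 29.8 and 24.98 CPM to 38.3, 45.5 and 44.9 (0.66 ± 0.10, edgeR adjusted p = 0.00185). EEF2K, the kinase that inactivates elongation factor 2, fell from 57.3, 57.9 and 59.7 CPM to 45.9, 46.9 and 44.7 (-0.35 ± 0.06, edgeR adjusted p = 0.00308), but length correction turned its value to 0.17.

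Fold changes in these libraries went with transcript length, and the members followed this. Length here is that of the longest GENCODE 29 transcript. Across the 10040 protein-coding genes tested, the log2 fold change fell with length, with Spearman's rho of -0.72 and a slope of -0.43 for each doubling. Across the 50 protein-coding members tested, rho was -0.58 and the slope -0.27. These genes share the same 6 libraries, so the coefficients are descriptions without a p. Members ranged from 1010 to 11523 nt, with a median of 3792.5. The median log2 fold change was 0.39 in the shorter 25 and 0.16 in the longer 25. The short EIF3G, EIF3I, EIF3K and EIF6 stood among the highest, and EIF4G1 and EIF4G3 lay below other members of similar length.

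**Figure D4:**
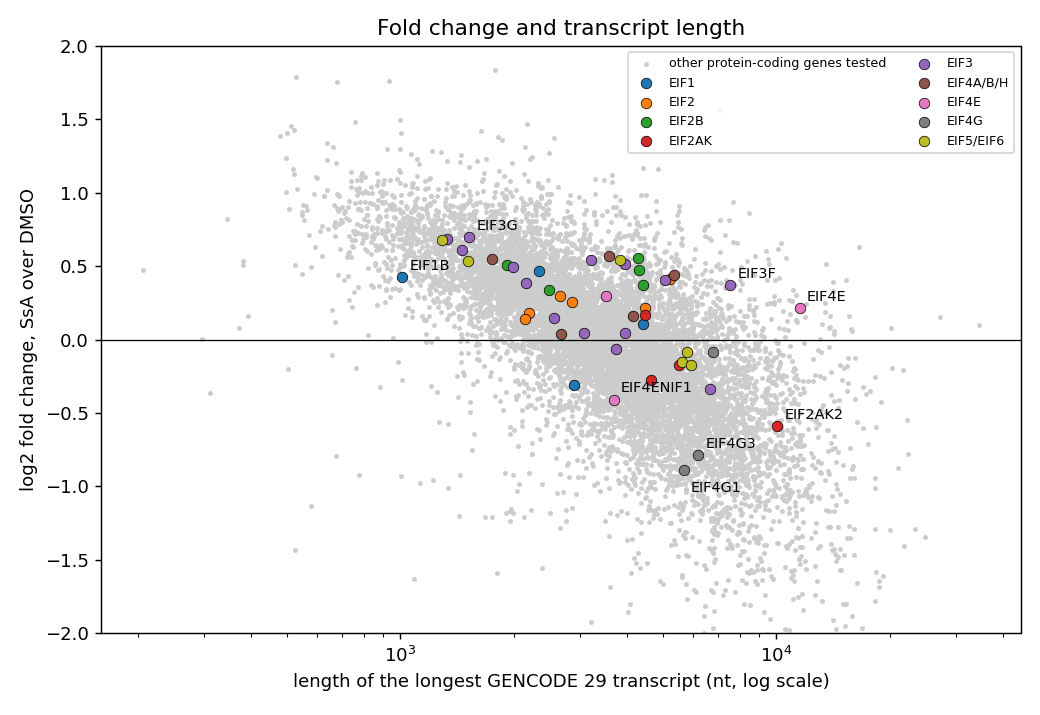
Log2 fold change, SsA over DMSO, against the length of the longest annotated transcript (log x axis) for the members, coloured by factor, and for the other protein-coding genes tested, in grey. The y axis leaves out 39 grey genes; fold changes fall with length in both, with slopes of -0.27 for the members and -0.43 for all genes for each doubling.

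A correction took out of each library the linear trend of counts with length over all protein-coding genes before the edgeR test. Since the members' own slope was shallower, the trend among them was not removed but turned around, with Spearman's rho of 0.38 after the correction. The correction thus lowered the shortest members, such as EIF1B, and raised the longest, such as EIF4E, by more than the members' own trend. After it, 20 members were higher (39.2%) and 5 lower (9.80%), against 16.5% and 15.9% of all tested rows. The median of the members was 0.18 and that of all tested rows -0.00. Of the 32 members called without the correction, 16 were called again in the same direction (13 higher and 3 lower). EIF5 and EIF1B were called in the opposite direction. The members lower after correction were EIF4G1, EIF4G3, EIF4ENIF1, EIF1B and EIF1AD. When the length was taken from the ratio of counts to FPKM in the deposited table, 28 members were higher and 3 lower, against 20.5% and 20.1% of all tested rows. Under both definitions of length 18 members were higher, with all 3 of EIF2B2, EIF2B4 and EIF2B5 among them, and EIF4G1, EIF4G3 and EIF1AD were lower. The correction assumes that length does not itself go with the response to SsA, which was not tested.

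Without DMSO replicate 3 and SsA replicate 1, the libraries with a high mitochondrial share, 31 members were higher and 9 lower by edgeR, against 33.3% and 34.5% of all tested rows. All 25 members higher and 7 lower in the 6 libraries were among them. This fit compared the 2 most alike libraries of each group, so the spread it rests on is narrow. Over all tested rows more passed as well, against 25.9% higher and 27.9% lower in the 6 libraries. That the calls were kept is thus no separate support for them. The members gained were EIF2A, EIF2S1, EIF2AK1, EIF4B, EIF4E and EIF4E2, all higher, and EIF1AD and EIF4G2, both lower. Of the 4 members most changed in the 6 libraries, EIF4G1 had a log2 fold change of -0.86 without these 2, EIF4G3 -0.75, EIF3G 0.70 and EIF3K 0.61.

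The window of 300 bases from 250 before to 50 after each RefSeq start was searched on both strands for 3 motifs, none of which contains another. CACGTG, an E-box bound by MYC among others, occurred in 17.7% of the 62 member starts and 7.26% of all starts, in 11 member genes that included EIF4G1, EIF2AK2, EIF3F, EIF3K and EIF4A3. CCGGAAG, a site of ETS family factors, occurred in 24.2% of member starts and 10.3% of all starts, in 13 genes that included EIF2B1, EIF2B2, EIF3I and EIF6. TTNCATCA, a site of the kind bound by ATF4 with C/EBP factors, occurred in 1.61% of member starts and 3.62% of all starts, in EIF4E3. The E-box occurred in members that rose and in members that fell. These matches describe sequence only, and binding was not measured.

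The counts of some members can include reads of other genes. In GENCODE 29, exons of 30 of the 53 members overlap exons of a gene on the opposite strand, and those of 7 members overlap a gene on the same strand. The libraries mark the strand, but the sources used here do not say whether counting used it. The fall of EIF4G1 and EIF4G3 and the rises of EIF3E, EIF3F and EIF3K concern genes without such an overlap.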

How the data were processed

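RNA was read as oligo(dT)-selected, strand-marking libraries, 3 with DMSO and 3 with SsA, per the labels' protocols. The submitters' processing notes name cutadapt 1.9, HISAT2 2.0.4, StringTie 1.3.4d and GRCh38, and the counting step, its strand setting and the annotation release could not be taken from the sources read. The deposited table gives per gene a count in whole numbers and an FPKM value for each library, per the file headers; the FPKM had been scaled by length and library size by the authors. In the column names, SA was taken to mean SsA and its absence DMSO, and the number to be the replicate.

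A row was kept if 3 or more of the 6 libraries reached an FPKM of 1 (11427 rows). TMM-scaled counts, as deposited otherwise, were compared in edgeR 4.0.16 (quasi-likelihood, two-sided, Benjamini-Hochberg, threshold 0.05) in R 4.3.3, and the SE is the log2 fold change over the square root of F. The biological coefficient of variation was 15.3%. No 2 libraries of a group agreed within sampling noise (a chi-square per gene of at least 15.2). That value was 15.5 between DMSO replicates 1 and 2 and 15.2 between SsA replicates 2 and 3, but 329 to 428 between DMSO replicate 3 or SsA replicate 1 and the rest of their groups. It was 368 between those 2 libraries, whose deviations from their group means correlated at 0.55. The scripts were tested on simulated data, with 67, 67 and 66 of 11427 genes changed 1.5-, 2- and 4-fold. Without a simulated length trend, 3.75% of the edgeR calls were false. With a linear length trend simulated, 95.9% of the edgeR calls were false without length correction and 4.17% with it. These shares depend on how few genes were changed there. The trend was simulated from the same lengths and in the same linear form that the correction removes. All genes were given the same dispersion, and no library was made to stand apart. The 4.17% therefore cannot show how well the correction suits these libraries. Lengths came from GENCODE 29, which gave one for all tested members and 99.6% of tested rows.

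The members and gene lists were chosen with earlier results of these data known. All 4 kinases were given by library, and so were the 3 tested members of smallest p and the one of largest change in each factor group, the 3 genes of smallest p in each list, EIF4EBP1, EIF4EBP2 and PPP1R15A. Alternatives were DESeq2 1.42.0, RLE scaling, other filters, limma 3.58.1 on log2 FPKM (pseudocounts 1 and 0.1) and log2 TPM, each library left out, a replicate block, corrections for length and GC content, and the mitochondrial share as a covariate. The deviations of same-numbered DMSO and SsA libraries correlated with varying sign (Pearson's r -0.34, 0.29 and -0.35), and the groups were not treated as paired. With 3 libraries a group, of which DMSO replicate 3 and SsA replicate 1 stood apart, these values cannot exclude a pairing. The replicate block is therefore given as an alternative.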

Additional observations from a re-analysis of the deposited data

How the results depend on the processing

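With 51 members tested (53 without the filter), DESeq2 called 27 higher and 9 lower, against 3334 and 3423 of all 11427 tested rows. RLE scaling called 25 and 8 members, no filter 25 and 5, and a mean of at least 5 FPKM 21 and 7 of 46. Leaving out 1 library in turn gave 22 to 27 higher and 5 to 7 lower. The replicate block gave 22 higher and 5 lower, all of them also called without it, and lost the calls of EIF2AK4, EIF2B2, EIF2S3, EIF3D and EIF5. With the mitochondrial share as a covariate 34 were higher and 10 lower. For RLE scaling, the filters, the left-out libraries, the block and this covariate, the shares over all tested rows were not computed. These counts thus cannot be set against them. In these fits 36 to 38 of 51 members lay above the median of all tested rows, or 43 of 53 without the filter and 30 of 46 with the stricter one. The counts moved by over 1.5 times with FPKM and a pseudocount of 1 (6 higher) or 0.1 (6 higher), with TPM (0 higher), with the corrections for length and GC content (4 lower) or for implied length (3 lower), and with length correction and the replicate block together (11 higher and 2 lower). The length corrections without DMSO replicate 3 and SsA replicate 1, and with implied lengths, were added after the data were seen. They gave 33 higher and 6 lower, and 28 higher and 3 lower, the latter against 20.5% and 20.1% of all tested rows. No such shares were computed for the first of these fits, so its counts cannot be set against them. Nor were they computed for the pseudocount of 0.1, for length and GC content, or for length correction with the replicate block.

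Under some alternatives log2 fold changes took the other sign, and the cause was not tested. With a mean of at least 5 FPKM they were EIF4H -0.078, EIF1AX -0.012, EIF3C -0.068 and EIF3CL -0.070. On log2(FPKM + 1) they were EIF4B -0.0054, EIF3J -0.019, EIF4H -0.12, EIF1AX -0.055, EIF3J-DT -0.031, EIF2S3B -0.016, EIF3C -0.11, EIF3CL -0.12 and MTIF2 -0.029. On log2(FPKM + 0.1) they were EIF4B -0.0054, EIF3J -0.019, EIF4H -0.12, EIF1AX -0.056, EIF3J-DT -0.043, EIF2S3B -0.018, EIF3C -0.11, EIF3CL -0.12 and MTIF2 -0.031. On log2(TPM + 1), where the median of all genes shifted down, they were EIF4B -0.21, EIF2AK1 -0.19, EIF3J -0.22, EIF4H -0.32, EIF2B1 -0.023, EIF2S2 -0.068, EIF2S3 -0.10, EIF2S1 -0.14, EIF4E2 -0.059, EIF2A -0.18, EIF4E -0.14, EIF1AX -0.26, EIF3J-DT -0.22, EIF2S3B -0.21, EIF3C -0.31, EIF3CL -0.32, MTIF3 -0.052 and MTIF2 -0.23. With length correction they were EIF2AK2 0.12, EIF5 0.21, EIF3J -0.0022, EIF3B 0.027, EIF4H -0.084, EIF3A 0.11, EIF4G2 0.38, EIF1B -0.30, EIF2AK4 0.15, EIF2A -0.061, EIF5B 0.28, EIF5A2 0.19, EIF2S3B -0.12, MCTS1 -0.29, MTIF3 -0.36, MTIF2 -0.025 and EEF2K 0.17. With GC content added they were EIF2AK2 0.083, EIF5 0.17, EIF3J -0.080, EIF3B 0.089, EIF4H -0.057, EIF3A 0.095, EIF4G2 0.34, EIF1B -0.38, EIF2AK4 0.16, EIF2A -0.14, EIF5B 0.23, EIF5A2 0.10, EIF2S3B -0.17, MCTS1 -0.37, MTIF3 -0.44, MTIF2 -0.082 and EEF2K 0.20. With length correction and the replicate block they were EIF2AK2 0.12, EIF5 0.21, EIF3J -0.0026, EIF3B 0.026, EIF4H -0.079, EIF3A 0.11, EIF4G2 0.38, EIF1B -0.30, EIF2AK4 0.15, EIF2A -0.058, EIF5B 0.28, EIF5A2 0.18, EIF2S3B -0.12, MCTS1 -0.29, MTIF3 -0.36, MTIF2 -0.025 and EEF2K 0.17. Without the 2 libraries of high mitochondrial share they were EIF4H -0.00023, EIF3J-DT -0.038 and EIF3CL -0.024. With that share as a covariate they were EIF3C -0.013 and EIF3CL -0.034. With length correction and without those 2 libraries they were EIF2AK2 0.14, EIF5 0.21, EIF3J -0.010, EIF3B 0.046, EIF4H -0.11, EIF3A 0.15, EIF4G2 0.39, EIF1B -0.29, EIF2AK4 0.13, EIF2A -0.034, EIF5B 0.32, EIF5A2 0.34, EIF2AK3 0.0097, EIF3J-DT -0.11, EIF2S3B -0.12, EIF3CL -0.046, MCTS1 -0.29, DHX29 0.060, MTIF3 -0.38, MTIF2 -0.039 and EEF2K 0.16. With implied lengths they were EIF5 0.15, EIF3J -0.054, EIF3B 0.30, EIF4H -0.15, EIF4G2 0.25, EIF1B -0.038, EIF2S2 -0.010, EIF2AK4 0.33, EIF5B 0.21, EIF3J-DT -0.015, EIF2S3B -0.19, EIF3CL -0.16, EIF4EBP1 -0.094, MTIF3 -0.23 and MTIF2 -0.026. With 1 library left out in turn, EIF4H ranged from -0.13 to 0.18, EIF1AX from -0.031 to 0.21, EIF3C from -0.030 to 0.12 and EIF3CL from -0.072 to 0.11. In those fits EIF3J-DT kept its sign, from 0.034 to 0.24.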
